A study of Mus musculus with 12 samples.

Results

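The genes that move calcium into and out of the sarcoplasmic reticulum of muscle were measured on 24 of the 45037 probe sets of a mouse genome array. A probe set is a bundle of short probes that reads a transcript. Those 24 are the probe sets whose only annotated gene symbol was that of 1 of 10 genes: 2 for *Sln*, 3 for *Pln*, 1 for *Atp2a1*, 6 for *Atp2a2*, 2 for *Ryr1*, 1 each for *Casq1*, *Casq2* and *Cacna1s*, 6 for *Trdn* and 1 for *Pvalb*. RNA came from M. vastus lateralis muscle, gonadal white adipose tissue (WAT) and liver of 12 week old female C57bl/6 mice with a *Ghsr* knockout (KO), which removes the receptor of acylated ghrelin and which all groups shared, controls included. Mice were injected ip. with unacylated ghrelin (UAG) at 20 nmol/kg or with saline, and tissues were taken 6 h later. The groups were UAG muscle, saline muscle, UAG WAT, saline WAT, UAG liver and saline liver, with 2 arrays in each and 12 arrays in all. Nothing in the labels ties an array to a particular mouse, so a p-value here reflects only how far these samples spread, which may be technical, and 2 arrays a group limit the precision of every value.

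A muscle fibre contracts when calcium leaves the sarcoplasmic reticulum and relaxes when it is pumped back. CACNA1S, the voltage sensor of the surface membrane, opens RYR1, the release channel. Triadin (*Trdn*) ties RYR1 to the calcium-binding calsequestrins (*Casq1* in skeletal fibres, *Casq2* in slow fibres and heart) inside the store. The SERCA pumps (*Atp2a1* in fast fibres, *Atp2a2* in slow fibres, heart and, as a housekeeping form, in most other cells) refill it, sarcolipin (*Sln*) and phospholamban (*Pln*) restrain the pumps, and parvalbumin (*Pvalb*) binds calcium in the cytosol of fast fibres.

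The stretch before the gene start was looked up in RefSeq (GRCm38.p6) for these genes, because most of them were high in the same tissue. Of the 10 genes 7 had an entry, *Pvalb* with a pair of starts, and the windows cover the 250 bases before each start. The E-box CAGCTG, a form of the CANNTG site to which myogenic factors such as MyoD bind, was searched on both strands. It was in the windows of *Atp2a1*, *Casq1* and *Cacna1s*, 3 of the 7 genes, while 13.0% of all 32851 windows of that length held it. The motif of MEF2, another regulator of muscle genes, was also searched on both strands and was in the windows of *Casq2* and *Pvalb*, 2 of the 7, against 2.92% of all windows. The wider CANNTG, which includes CAGCTG, was in the windows of 6 of the 7 genes and in 66.2% of all, and TATAAA in that of *Pln* alone and in 12.4% of all. No member window held the CArG box, which 1.47% of all windows held. A match is a stretch of letters and not a measured binding site. The 5 windows with either motif are printed below, with the CAGCTG or MEF2 match in capitals.
Atp2a1, chr7:126463074-126463323, minus strand: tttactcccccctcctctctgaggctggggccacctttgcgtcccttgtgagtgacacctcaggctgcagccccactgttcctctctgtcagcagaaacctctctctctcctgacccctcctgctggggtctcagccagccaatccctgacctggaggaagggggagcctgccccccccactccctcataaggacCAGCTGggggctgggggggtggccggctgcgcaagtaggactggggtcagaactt
Casq1, chr1:172219896-172220145, minus strand: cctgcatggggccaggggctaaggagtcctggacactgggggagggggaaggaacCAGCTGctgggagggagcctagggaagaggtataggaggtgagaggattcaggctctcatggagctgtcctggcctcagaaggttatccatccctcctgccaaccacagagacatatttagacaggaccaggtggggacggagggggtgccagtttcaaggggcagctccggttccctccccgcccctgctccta
Cacna1s, chr1:136052561-136052810, plus strand: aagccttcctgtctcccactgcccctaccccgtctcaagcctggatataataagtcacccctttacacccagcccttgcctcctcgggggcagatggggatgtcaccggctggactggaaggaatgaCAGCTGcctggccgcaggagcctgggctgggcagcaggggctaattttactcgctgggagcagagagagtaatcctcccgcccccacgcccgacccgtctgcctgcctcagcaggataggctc
Casq2, chr3:102086165-102086414, plus strand: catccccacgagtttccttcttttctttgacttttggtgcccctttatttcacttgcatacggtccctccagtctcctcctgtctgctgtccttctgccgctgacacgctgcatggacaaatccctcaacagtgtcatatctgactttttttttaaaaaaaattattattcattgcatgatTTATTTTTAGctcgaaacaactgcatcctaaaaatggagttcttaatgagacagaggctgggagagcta
Pvalb, chr15:78206401-78206650, minus strand: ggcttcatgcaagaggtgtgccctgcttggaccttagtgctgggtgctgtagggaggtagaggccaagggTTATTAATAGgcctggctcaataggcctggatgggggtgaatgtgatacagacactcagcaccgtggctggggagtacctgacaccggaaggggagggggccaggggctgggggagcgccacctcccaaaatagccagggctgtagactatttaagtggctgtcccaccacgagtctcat

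The values are intensities that the authors normalised and deposited on a log scale, taken as log2 from their range because the base is not given. Values below 30, the threshold of the study's methods, were set to 30 before means and fold changes were taken, which understates the change of dim probe sets. Arrays of a tissue correlated at 0.938 to 0.951 in muscle, 0.951 to 0.962 in WAT and 0.925 to 0.946 in liver. Markers fitted the labelled tissues: *Ckm* was at 13213 to 14587 on the muscle arrays, *Adipoq* at 12280.4 to 14161 on the WAT arrays and *Alb* at 10618 to 15547 on the liver arrays. The muscle arrays also held the adipocyte gene *Adipoq* at 7674 to 11936 and the brown adipocyte gene *Ucp1* at 1043 to 3713. *Ghsr* was below 30 on all 12 arrays, of which none is from wild type mice. WAT saline replicate 1 stood apart by genes of skeletal muscle and brown adipocytes, WAT saline replicate 2 by genes of smooth muscle and muscle saline replicate 1 by a low level of slow fibre genes. Their values stand beside the results they touch.

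The first comparison was between tissues. All 10 genes had a probe set that was higher in muscle than in liver, and all but *Pln* had one that was higher in muscle than in WAT (limma on all 12 arrays, adjusted p under 0.05 and at least 2-fold). Between muscle and liver 15 of the 20 member probe sets tested were higher in muscle and 2 were lower, where 16.2% and 14.5% of all 26530 probe sets tested were. Between muscle and WAT 13 were higher in muscle and 1 was lower, where 9.02% and 10.1% of all were. Between WAT and liver none was higher in WAT and 1, of *Atp2a2*, was lower, where 15.1% and 12.4% of all were. With no floor 9 were higher and 1 was lower. The median log2 difference of the 20 probe sets was 3.49 for muscle minus liver, 3.17 for muscle minus WAT and 0.27 for WAT minus liver, beside 0.03, -0.05 and 0.02 over all probe sets tested. A fold is written as at least its value where some or all arrays of the lower tissue were below 30 and set to it. Members below 30 on all WAT and liver arrays, such as *Sln*, entered the test only through muscle, which fixed their direction. In whole tissue, fewer cells of a type and less RNA per cell cannot be told apart.

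**Figure D1:**
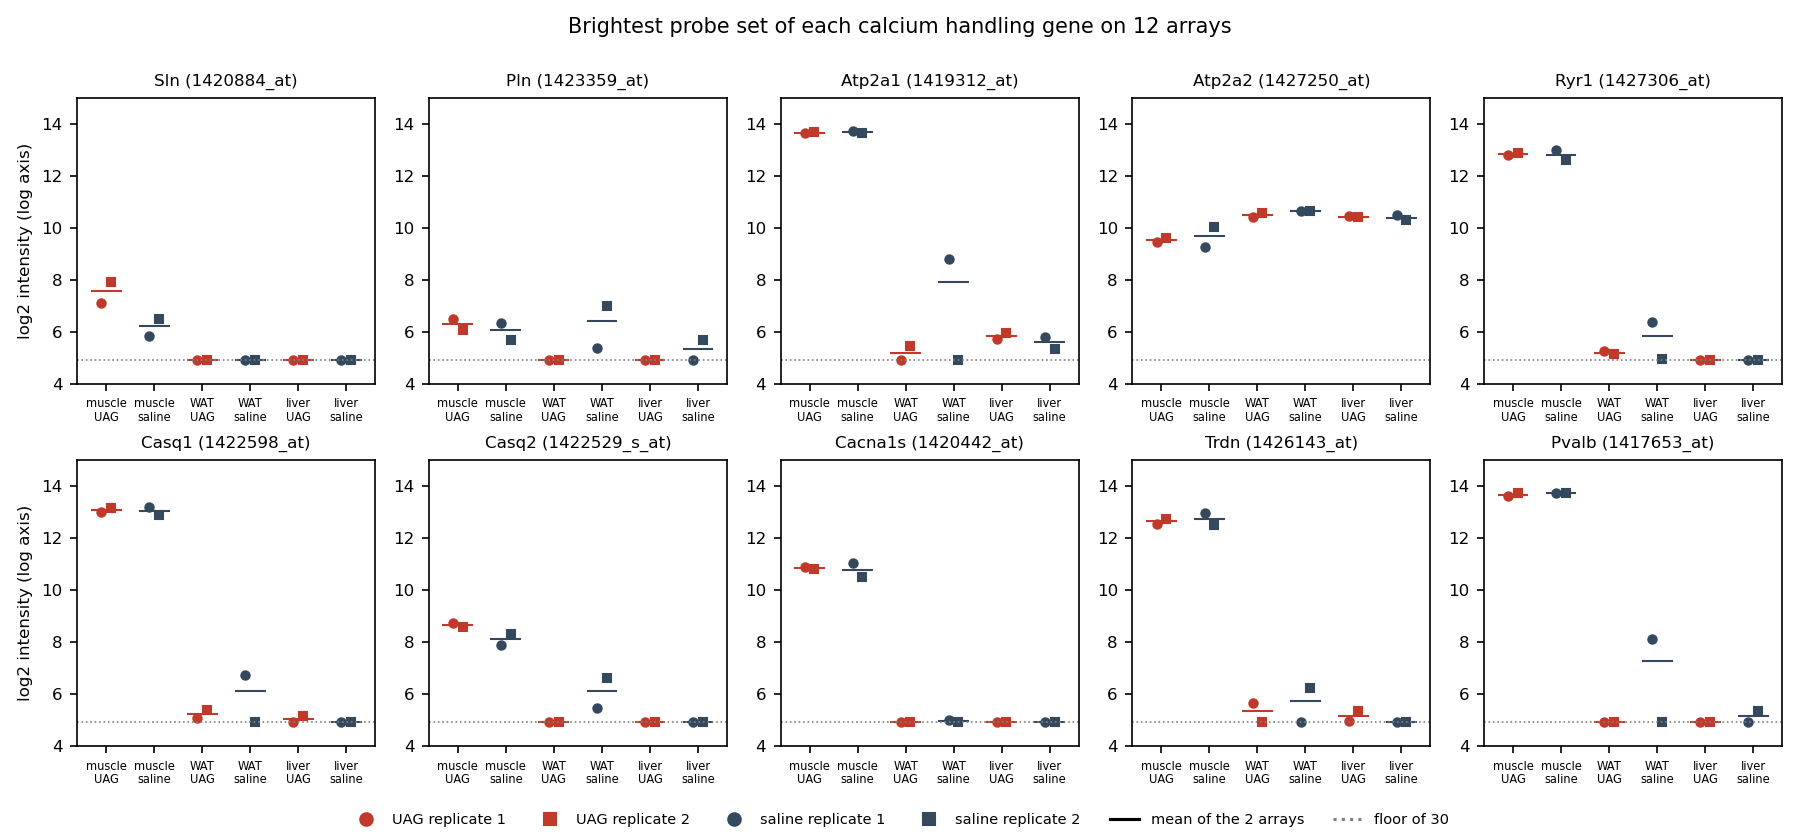
Log2 intensity (log axis, values below 30 set to 30) of the brightest probe set of each of the 10 genes on the 12 arrays, by tissue and treatment. Points are arrays, lines the mean of the 2 arrays of a group and the dotted line the floor of 30. The points of *Atp2a1*, *Ryr1*, *Casq1*, *Trdn* and *Pvalb* lie at high intensity in muscle and near the floor elsewhere, but for WAT saline replicate 1 in *Atp2a1* (451), *Pvalb* (277), *Casq1* (108) and *Ryr1* (83.5) and WAT saline replicate 2 in *Trdn* (76.1), whereas *Atp2a2* lies between 616 and 1626 on every array.

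The release channel and its sensor were muscle genes in these data. *Ryr1* (1427306_at) had 7191 and 7533 on the UAG muscle arrays, and 8212 and 6304 on the saline muscle arrays. In WAT it had 38.1 and 35.5 after UAG, and 83.5 and 31.0 after saline, and in liver it stayed below 30 on all 4 arrays. The muscle arrays did not overlap with those of either other tissue. *Ryr1* was at least 243-fold higher in muscle than in liver (log2 difference 7.92, standard error 0.25, adjusted p = 3.03e-10) and 168-fold higher than in WAT (7.39, 0.25, adjusted p = 3.20e-09). Its dimmer probe set 1457347_at was at least 38.9-fold higher than in liver and at least 40.0-fold higher than in WAT. *Cacna1s*, the voltage sensor, had 1889.8 and 1796 on UAG muscle arrays, and 2092 and 1447 on saline muscle arrays. It reached 30 on 1 of the 8 other arrays, WAT saline replicate 1 at 31.6, and was at least 59.7-fold higher in muscle than in liver.

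Triadin was read by 6 probe sets of very different brightness. *Trdn* (1426143_at) had 6067 and 6871 on UAG muscle arrays, and 8107 and 5780.5 on saline muscle arrays. In WAT it had 50.5 and 27.7 after UAG and 9.09 and 76.1 after saline, and in liver 30.9 and 40.7 after UAG and 18.9 and 24.2 after saline. Muscle stood above both, by at least 204-fold against liver and at least 154-fold against WAT. The probe sets 1426144_x_at, 1426142_a_at and 1451801_at were higher in muscle than in liver too, by at least 194-fold, at least 60.3-fold and at least 11.4-fold. The dimmest probe sets, 1451940_x_at and 1426134_at, were below 30 on every WAT and liver array and were not tested between tissues. They had 35.0 to 89.5 and 18.1 to 32.8 in muscle. The suffix x marks probe sets that may pick up other transcripts, and 2 of the *Trdn* probe sets carry it.

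The calsequestrins differed in how far they stood above the other tissues. *Casq1*, the skeletal fibre form, had 8284 and 9122 on UAG muscle arrays, and 9424 and 7587 on saline muscle arrays. In WAT it had 33.3 and 41.3 after UAG, and 108 and 28.2 after saline. It was at least 275-fold higher in muscle than in liver (adjusted p = 1.71e-09) and at least 187-fold higher than in WAT (adjusted p = 1.64e-08). *Casq2*, the form of slow fibres and heart, had 422 and 383 on UAG muscle arrays, and 234 and 319 on saline muscle arrays. In WAT it had 18.5 and 25.5 after UAG, and 43.6 and 97.0 after saline, and it was below 30 on every liver array. *Casq2* was at least 11.0-fold higher in muscle than in liver and at least 7.51-fold higher than in WAT (adjusted p = 1.95e-07 and 2.88e-06). The only *Casq2* probe set, 1422529_s_at, carries the suffix s, and whether it picks up other transcripts was not tested. Of 6 heart genes *Nppa*, *Tnni3* and *Myl7* were below 30 on all 12 arrays and *Myh6* on all but a UAG muscle array at 33.4, while *Nppb* and the troponin gene *Tnnt2* passed 30 in some tissues. *Tnnt2* had 52.5 and 51.3 on UAG muscle arrays, and 38.7 and 39.3 on saline muscle arrays.

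The fast fibre pump and buffer were among the brightest members. *Atp2a1*, SERCA1, had 12818 and 13223 on UAG muscle arrays, and 13767 and 13091 on saline muscle arrays. In WAT it had 27.5 and 43.6 after UAG and 451 and 18.7 after saline, and in liver 52.8 and 62.9 after UAG and 55.9 and 40.6 after saline. It was 252-fold higher in muscle than in liver (adjusted p = 7.07e-07) and at least 204-fold higher than in WAT (adjusted p = 3.32e-06). *Pvalb* had 12713 and 13609 on UAG muscle arrays, and 13591 and 13579 on saline muscle arrays. Its other arrays lay between 10.5 and 41.0 except WAT saline replicate 1, at 277. With 3 of the 4 arrays of each below 30, *Pvalb* was at least 412-fold higher in muscle than in liver (adjusted p = 6.43e-08) and at least 256-fold higher than in WAT (adjusted p = 5.05e-07).

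*Atp2a2*, SERCA2, was bright in all 3 tissues, and its probe sets ordered the tissues differently. The probe set 1427250_at had 708 and 776 on UAG muscle arrays and 616 and 1042 on saline muscle arrays. It had 1373 and 1531 on UAG WAT arrays and 1606 and 1626 on saline WAT arrays, and in liver 1412 and 1371 after UAG and 1451 and 1261 after saline. Muscle was thus the lowest tissue on this probe set, with a log2 difference of -0.83 (standard error 0.15) to liver and -0.99 (0.15) to WAT, both short of 2-fold, while WAT and liver differed by 0.16 (0.15). The probe set 1416551_at ran the other way, with 1364 and 1542 on UAG muscle arrays and 564 and 1437 on saline muscle arrays, against 425 to 787 on the 8 arrays of WAT and liver. It was 2.30-fold higher in muscle than in liver (adjusted p = 0.000878), but short of 2-fold with the saline arrays alone (log2 difference 0.94) and without muscle saline replicate 2 (0.86), and its muscle range reached into that of WAT through saline replicate 1. The probe set 1452363_a_at was 2.26-fold higher in muscle than in WAT (adjusted p = 0.000852), a call lost with the saline arrays alone (log2 difference 0.42, adjusted p = 0.320).

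The remaining *Atp2a2* probe sets were dimmer. The probe set 1427251_at had 123 and 111 on UAG muscle arrays and 104 and 205 on saline muscle arrays, against 216 to 333 on the WAT and liver arrays. It was 2.11-fold lower in muscle than in liver and 2.02-fold lower than in WAT (adjusted p = 0.000587 and 0.00132). The probe set 1437797_at had 50.4 and 40.9 in UAG muscle and 36.3 and 54.5 in saline muscle, 44.3 and 45.6 in UAG WAT and 40.0 and 44.6 in saline WAT, and 78.9 to 152 in liver. Liver stood above both tissues on it, as muscle was 2.73-fold lower (adjusted p = 0.000171) and WAT 2.82-fold lower (adjusted p = 0.000156). The last probe set, 1443551_at, reached 30 in UAG liver alone, at 34.6 and 42.4, against 26.1 and 29.7 in saline liver.

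**Figure D2:**
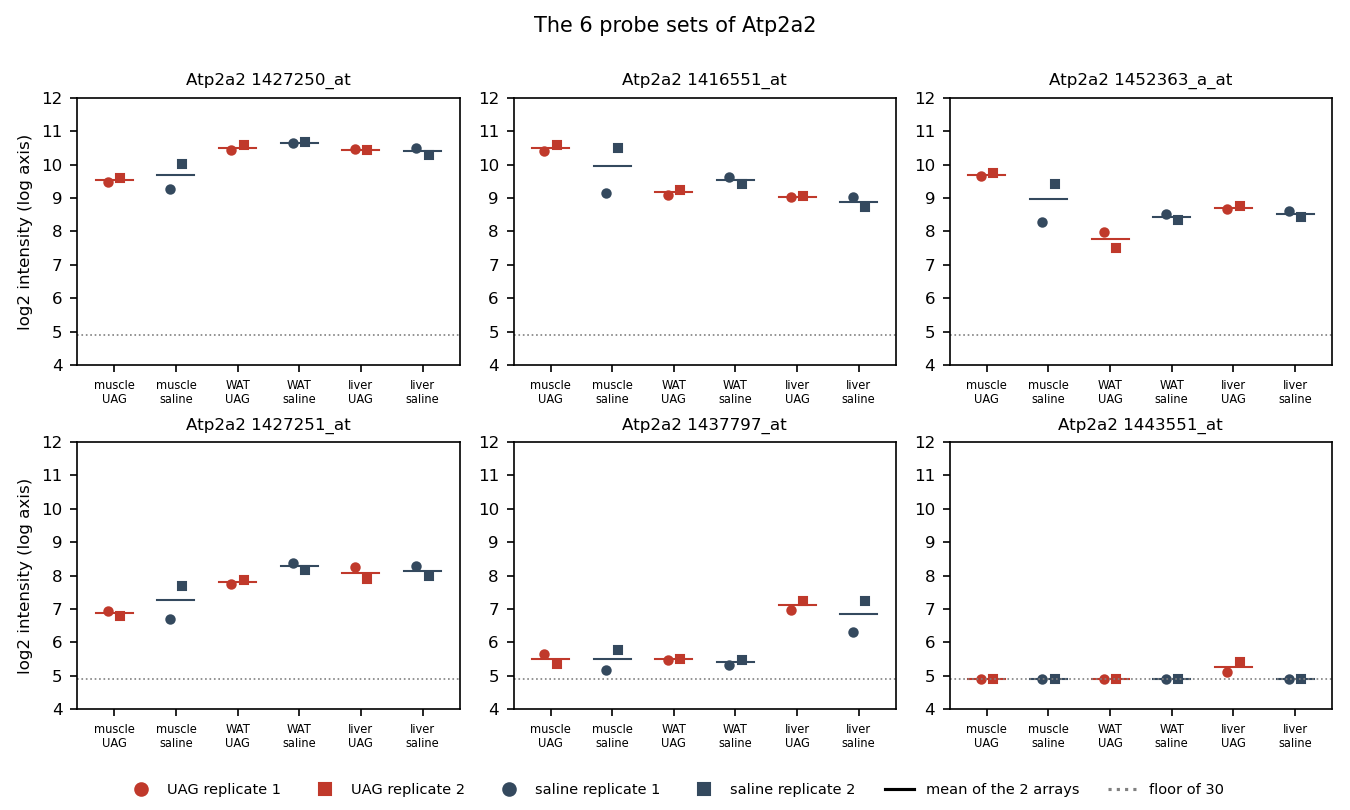
Log2 intensity (log axis, values below 30 set to 30) of the 6 probe sets of *Atp2a2* on the 12 arrays, by tissue and treatment. Points are arrays, lines the mean of the 2 arrays of a group and the dotted line the floor. Muscle is low on 1427250_at and 1427251_at, but on 1416551_at 3 of the 4 muscle arrays lie above the other tissues, with saline replicate 1 (564) among them.

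The inhibitors of the pumps were dim. *Sln*, sarcolipin, was read above 30 in muscle alone and by 1 of its 2 probe sets, 1420884_at, with 139.6 and 243 on UAG muscle arrays and 57.4 and 91.1 on saline muscle arrays. On the WAT and liver arrays this probe set lay between 2.74 and 14.6, which makes muscle at least 3.84-fold higher than either tissue (adjusted p = 8.51e-06 against liver and 2.19e-05 against WAT). The other probe set, 1420883_at, stayed between 3.62 and 16.3 on all 12 arrays. *Pln*, phospholamban, had 3 probe sets with 50.8 to 89.6 on the muscle arrays. In liver 8 of their 12 values were below 30, and 2 of the 3 probe sets were higher in muscle than in liver, by at least 2.08-fold for 1423359_at and at least 2.02-fold for 1450952_at (adjusted p = 0.0150 and 0.00196). With the saline arrays alone neither passed (adjusted p = 0.207 and 0.0572). Between muscle and WAT the *Pln* differences were 0.35 to 0.61 on the log2 scale, and none passed. On the UAG arrays alone, chosen after seeing the data, 1423359_at and 1450952_at had log2 differences of 1.37 and 1.24 for muscle minus WAT. That choice left out the saline WAT arrays, where both probe sets were above 30, and kept UAG WAT arrays that were all below 30. The direction was thus fixed in advance, and these values are no test of muscle against WAT.

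The rest of the pathway was read from 59 genes of the triad, the voltage sensor complex, the reticulum, the pumps and exchangers, store-operated entry and the calcium effectors, of which 53 were on the array. Each gene was read from a single probe set, the brightest over all arrays, a choice that can favour probe sets bright in muscle. Members were read on every probe set, and those of *Atp2a2* ordered the tissues differently. Of 45 tested, 29 were higher and 1 was lower in muscle than in liver, where 16.2% and 14.5% of all probe sets were. The median log2 difference was 1.92. Against WAT 27 were higher and 4 were lower, where 9.02% and 10.1% of all were, with a median of 1.47. These shares count every probe set tested and not the brightest of each gene. *Srl*, the luminal protein sarcalumenin, was higher in muscle by 7.69 on the log2 scale against liver and by 6.89 against WAT. *Hrc*, a histidine-rich calcium-binding protein of the reticulum, was higher by 6.25 and 6.27, and *Stac3*, which the voltage sensor needs, by 5.85 and 5.85. *Calr*, calreticulin of the general endoplasmic reticulum, was lower in muscle by both comparisons (-1.30 and -1.09). *Atp2a3*, a further SERCA pump, and *Itpr3*, an IP3 receptor, were lower in muscle than in WAT (-1.22 and -1.07).

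The second comparison was UAG against saline in muscle. No member passed limma on the 4 muscle arrays (adjusted p = 1 for all 21 probe sets tested), and no other probe set on the array did (0% of 25105). At an unadjusted p under 0.05, 4 of the 21 were higher after UAG and none lower, where 1.07% and 0.797% of all were. By the rule of the study's methods, a ratio of the means of at least 2 or at most 0.5, 1 of the 24 was higher, that of *Sln*, and none lower, where 0.133% and 0.162% of all probe sets were. In 5 of the 21 both UAG arrays lay above both saline arrays and in none below, where 11.4% and 11.3% of all did. The median log2 difference of the 21 was 0.08, with 15 above 0 and 6 below, beside -0.00 over all probe sets tested.

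*Sln* averaged 191 ± 72.9 on UAG muscle arrays and 74.2 ± 23.8 on saline muscle arrays (SD, n = 2 each). Both UAG arrays lay above both saline arrays, by a ratio of 2.58 and a log2 difference of 1.35 with a standard error of 0.35. The ratio was 1.88 without UAG replicate 2, 2.10 without saline replicate 1, 3.27 without UAG replicate 1 and 3.33 without saline replicate 2. The highest value, on UAG replicate 2, came with the most leukocyte RNA of the muscle arrays. *S100a8*, a neutrophil gene, had 82.7 and 2172 on UAG arrays and 78.3 and 189 on saline arrays, and the 5 leukocyte genes, all 5 with differences above 0, summed to 1527 and 6408 after UAG and to 1102 and 1558 after saline. The 5 brown adipocyte genes, 4 of them with differences below 0, summed to 19425 and 14494 after UAG and to 22033 and 18230.4 after saline. The 5 adipocyte genes, 3 of them with differences above 0, summed to 26841 and 31080.3 after UAG and to 23455 and 35699 after saline. The part of these lists in the *Sln* result was not tested. The 9 fast fibre genes summed to 124043 and 131057 on UAG arrays and to 125901 and 128913 on saline arrays, and the groups overlapped.

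*Pln*, the other inhibitor, showed small differences. The probe set 1423359_at had 89.6 and 67.1 after UAG and 82.2 and 52.1 after saline, and 1450952_at had 80.0 and 63.2 after UAG and 64.4 and 50.8 after saline. On both the arrays overlapped. The third, 1460332_at, had 61.2 and 65.2 after UAG and 52.9 and 57.3 after saline, which do not overlap but differ by a ratio of only 1.15. The 3 log2 differences were 0.20 to 0.31 with standard errors of 0.27 to 0.33.

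Among the pumps, the *Atp2a2* values turned on a single array. On 1452363_a_at UAG muscle had 802 and 851 and saline muscle 311 and 688, a ratio of 1.66 (log2 difference 0.84, standard error 0.33, unadjusted p = 0.0310). On 1416551_at, with 1364 and 1542 after UAG and 564 and 1437 after saline, the ratio was 1.45 and the arrays overlapped. Saline replicate 1 was the lowest array on all 5 *Atp2a2* probe sets tested in muscle. Without it the ratios were 1.20 and 1.01, and without saline replicate 2 they were 2.66 and 2.58. The probe sets 1427250_at and 1427251_at had ratios of 0.895 and 0.757, and saline replicate 2 was their highest array. *Casq2*, with 422 and 383 after UAG and 234 and 319 after saline, had a ratio of 1.46 (log2 difference 0.56, standard error 0.22, unadjusted p = 0.0353), and 1.26 without saline replicate 1.

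Saline replicate 1 was also low in slow fibre genes. *Myh7*, the slow myosin, had 817 and 993 on UAG arrays and 76.8 and 808 on saline arrays. *Myl3*, a slow light chain, had 2325 and 2424 on UAG arrays and 272 and 2592 on saline arrays. All 7 slow fibre genes were lower on saline replicate 1 than on saline replicate 2, with a median log2 difference of -2.82. They summed to 8295 and 8607 after UAG and to 1855 and 8478 after saline. Their median log2 difference, UAG minus saline, was 1.31, with all 7 above 0, and none was below 30 in muscle. *Sln* too was lowest on saline replicate 1, at 57.4. The 8 smooth muscle genes, all 8 with differences above 0, summed to 6273 and 5520.4 after UAG and to 5473 and 5388 after saline. The part of either list in the *Sln*, *Pln*, *Atp2a2* and *Casq2* values was not tested.

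**Figure D3:**
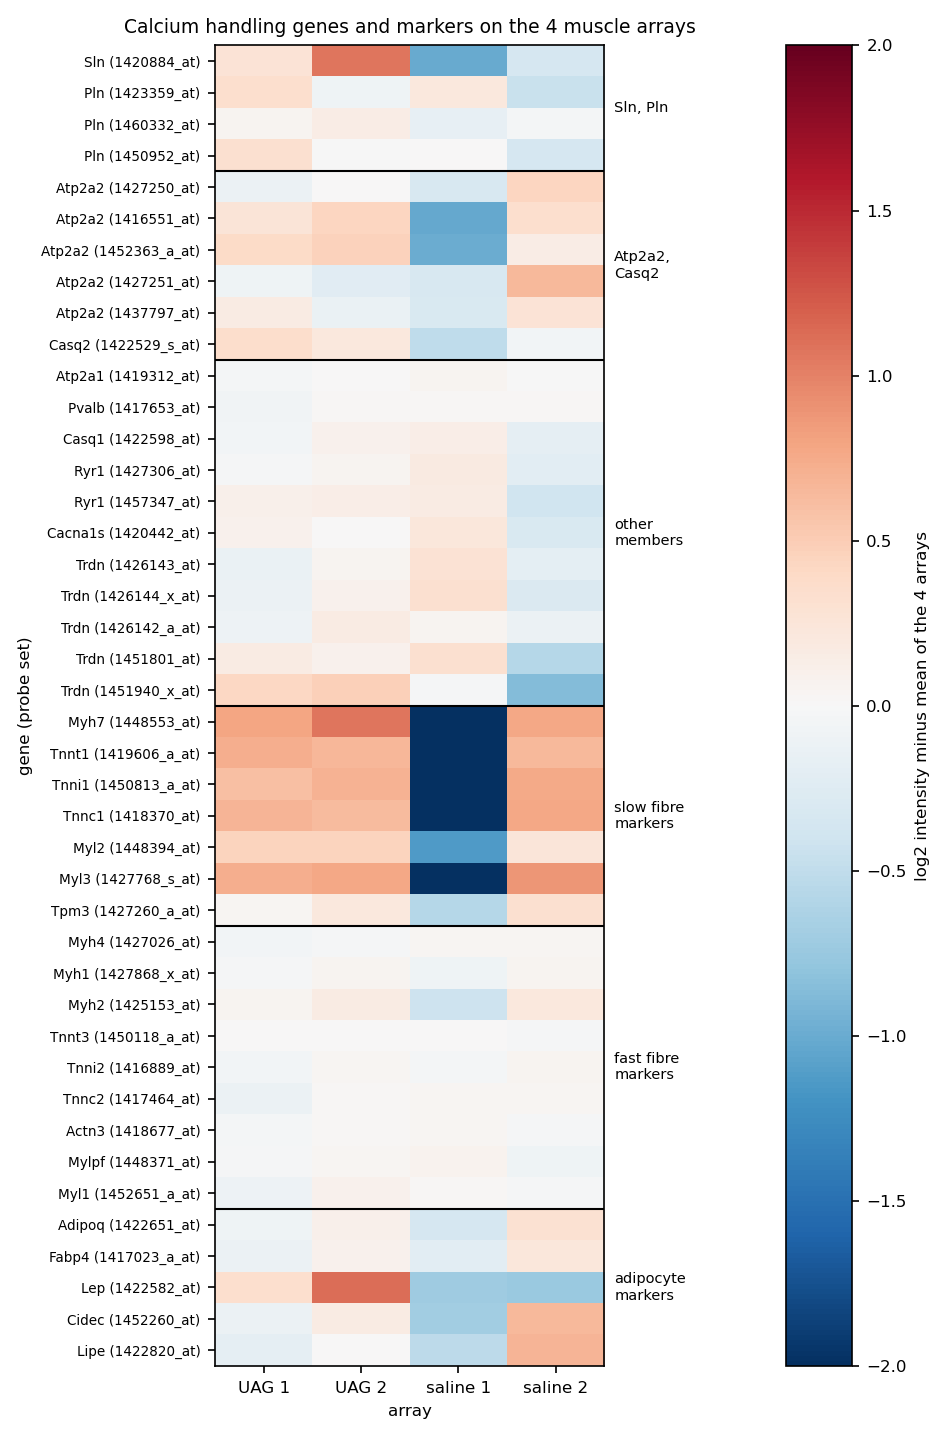
Log2 intensity minus the mean of the 4 muscle arrays (colour, cut at 2 either way) for the member probe sets tested in muscle and for markers of slow fibres, fast fibres and adipocytes, on the UAG and saline muscle arrays. Saline replicate 1 is the lowest array for *Sln*, the 5 *Atp2a2* probe sets and *Casq2* and for all 7 slow fibre genes (*Myh7* 76.8, against 808 on saline replicate 2), while the fast fibre genes other than *Myh2* vary little.

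Members other than *Sln*, *Pln*, *Atp2a2* and *Casq2* had nearly level means on their brightest probe sets. *Atp2a1* had a ratio of 0.970, *Pvalb* 0.969, *Casq1* 1.02, *Cacna1s* 1.04 and *Ryr1* 1.01 (1427306_at), and for each the arrays overlapped. *Atp2a1* and *Pvalb* are among the brightest signals on these arrays, and whether their probes still respond linearly there was not tested. For *Ryr1*, *Casq1*, *Cacna1s* and the bright *Trdn* probe sets 1426143_at and 1426144_x_at, saline replicate 1 was the highest and saline replicate 2 the lowest of the 4 muscle arrays. Saline replicate 1 was above saline replicate 2 in 13 of the 21 member probe sets tested in muscle and below it in 8. The median log2 difference of the 21, saline replicate 1 minus saline replicate 2, was 0.17. The same saline arrays differed that way in 35 of the 44 pathway genes tested, with a median of 0.49. Over all probe sets tested 53.8% did, with a median of 0.04. The dim *Trdn* probe set 1451940_x_at had 85.5 and 89.5 after UAG and 63.3 and 35.0 after saline, a ratio of 1.78 (log2 difference 0.89, standard error 0.34, unadjusted p = 0.0276), while the 4 brighter *Trdn* probe sets had ratios of 0.932 to 1.14. Without saline replicate 1 its ratio was 2.50 and without saline replicate 2 it was 1.38. Of the 44 pathway genes none changed 2-fold in muscle or passed limma, and the median log2 difference was 0.05. The difference farthest from 0 was that of *Slc8a1*, a sodium-calcium exchanger, at -0.52 (standard error 0.33). *Slc8a1* was below 30 on both UAG arrays and entered the test only through its saline arrays. Next were *Stim2*, a calcium sensor of store-operated entry, at 0.34 (0.23) and *Rcan2*, a regulator of calcineurin, at 0.33 (0.20).

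In WAT the member values after UAG were mostly low. Of the 15 member probe sets tested 14 had a log2 difference below 0, with a median of -0.62 beside 0.01 over all probe sets tested. None passed limma (lowest adjusted p = 0.644, and 0% of all 25307 passed). At an unadjusted p under 0.05, 5 were lower and none higher, where 2.37% and 4.43% of all were. By the ratio of the means 6 of the 24, from *Pln*, *Casq2*, *Atp2a1* and *Pvalb*, were lower at least 2-fold and none was higher, where 0.859% and 0.249% of all were. In 8 of the 15 both UAG arrays lay below both saline arrays and in none above, where 15.3% and 22.0% of all did. The *Pln* probe sets, *Casq2*, *Pvalb* and *Trdn* 1426144_x_at were below 30 on both UAG arrays. They entered the test only through their saline arrays, so a difference below 0 was fixed in advance. All of them count in the 14 and the median, and some in the 5 at an unadjusted p under 0.05 and in the 8. All but *Trdn* 1426144_x_at also count in the 6 that were lower at least 2-fold, and their ratios could not exceed 1. For *Pln*, *Casq2*, *Atp2a1* and *Pvalb* the saline arrays differed from each other, while those of the brighter *Atp2a2* probe sets lay close together.

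*Atp2a1* and *Pvalb* were high on WAT saline replicate 1 alone. *Atp2a1* had 27.5 and 43.6 on UAG WAT arrays and 451 and 18.7 on saline WAT arrays, a ratio of 0.153 that became 1.23 without saline replicate 1. *Pvalb* had 21.7 and 24.3 on UAG WAT arrays and 277 and 20.7 on saline WAT arrays, a ratio of at most 0.195, since both UAG arrays were below 30, and of 1 without saline replicate 1. *Casq1* (33.3 and 41.3 after UAG, 108 and 28.2 after saline) and *Ryr1* (38.1 and 35.5 after UAG, 83.5 and 31.0 after saline) followed the same array at ratios of 0.542 and 0.643. In all 4 genes the UAG arrays lay above saline replicate 2 or shared the floor with it, so the groups overlapped. *Trdn* on 1426143_at went the other way, with 50.5 and 27.7 after UAG and 9.09 and 76.1 after saline (log2 difference -0.30, standard error 0.49). On 1426144_x_at *Trdn* had 17.5 and 26.3 after UAG and 45.6 and 37.8 after saline. Saline replicate 1 also held fast fibre genes. *Ckm*, the muscle creatine kinase, had 24.3 and 40.7 after UAG and 613 and 35.1 after saline, and the 9 fast fibre genes, of which 7 of the 8 tested were at least 2-fold lower after UAG, summed to 859 and 1063 after UAG and to 3728 and 554 after saline. The 5 brown adipocyte genes, all 5 lower at least 2-fold, summed to 4019.9 and 1939 after UAG and to 19890.2 and 2847 after saline. Their part in the result was not tested.

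*Pln* and *Casq2* were highest on WAT saline replicate 2. On 1450952_at *Pln* had 24.2 and 25.6 after UAG and 58.6 and 119 after saline, on 1423359_at 29.6 and 26.3 after UAG and 41.8 and 128 after saline, and on 1460332_at 23.5 and 28.9 after UAG and 30 and 131 after saline. All UAG values were below 30, so the ratios of 0.339, 0.354 and 0.372 are upper limits. The arrays did not overlap on the first and second of these probe sets. *Casq2*, with 18.5 and 25.5 after UAG and 43.6 and 97.0 after saline, had a ratio of at most 0.427, and its arrays did not overlap. Without saline replicate 2 the ratios were 0.512, 0.718 and 1 for *Pln* and 0.689 for *Casq2*. Without saline replicate 1 they were 0.253, 0.234 and 0.228 and 0.309. *Pln* and *Casq2* are also genes of smooth muscle, and saline replicate 2 had the highest smooth muscle values. *Myh11*, smooth muscle myosin, had 515 and 703 after UAG and 658 and 5589.9 after saline, and the 8 smooth muscle genes, all 8 with differences below 0, summed to 7049 and 7479 after UAG and to 6508 and 36138 after saline. The heart gene *Tnnt2* was below 30 on both UAG arrays and had 179.7 and 129 after saline, and the 6 heart genes, both of the tested ones with differences below 0, summed to 80.6 and 100.4 after UAG and to 260.1 and 209.8 after saline. The part of either list in the result was not tested.

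*Atp2a2* was bright in WAT and did not follow either saline array alone. On 1452363_a_at UAG WAT had 255 and 183 and saline WAT 368 and 324, a ratio of 0.633 (log2 difference -0.68, standard error 0.21, unadjusted p = 0.0201). On 1427251_at UAG WAT had 216 and 233 and saline WAT 333 and 289, a ratio of 0.722 (-0.47, 0.17, unadjusted p = 0.0321). On 1416551_at UAG WAT had 548 and 601 and saline WAT 787 and 689.6, a ratio of 0.778 (-0.36, 0.15), and on 1427250_at, the brightest, 1373 and 1531 against 1606 and 1626, a ratio of 0.898. On these 4 probe sets both UAG arrays were below both saline arrays, and none passed limma after adjustment (adjusted p = 0.685 to 0.861). With each array left out in turn the ratio of 1452363_a_at lay between 0.530 and 0.736. The 5 adipocyte genes, all 5 with differences above 0, summed to 47268 and 51569.5 after UAG and to 45670.2 and 41675 after saline, and their part was not tested. On the dim 1437797_at the arrays overlapped. Of the 38 other pathway genes tested in WAT 2 were lower at least 2-fold. *Jph2*, a junctophilin that holds the store near the surface membrane in striated and smooth muscle, had 34.6 and 39.9 after UAG and 83.0 and 277 after saline, a ratio of 0.207. *Cacna1c*, the calcium channel of heart and smooth muscle, had 38.1 and 32.0 after UAG and 27.1 and 141 after saline, a ratio of 0.412. Both were highest on saline replicate 2, and the 38 genes split evenly, 19 above 0 and 19 below.

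**Figure D4:**
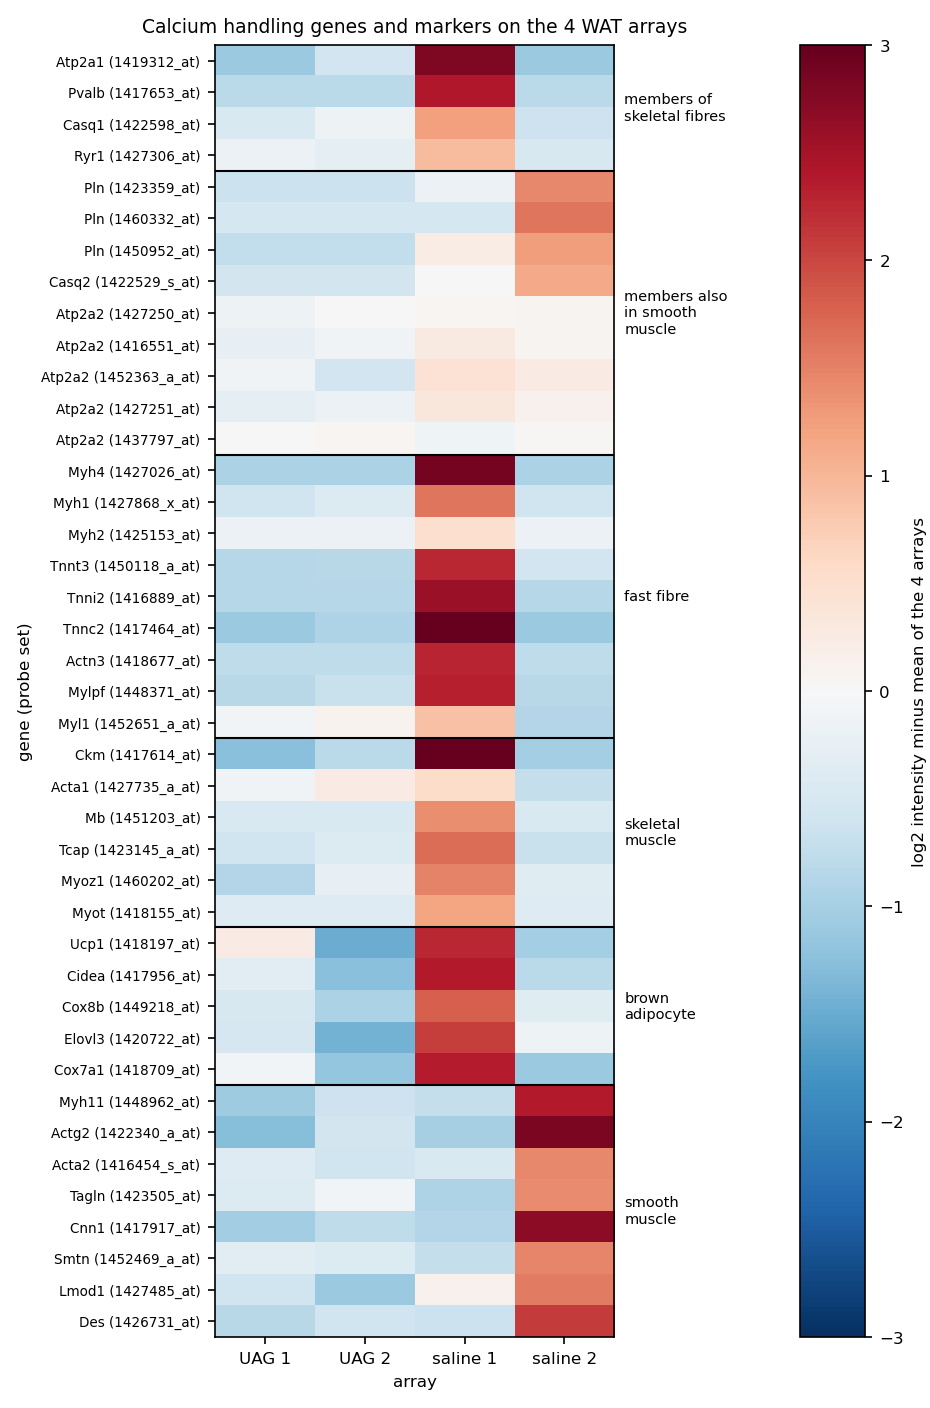
Log2 intensity minus the mean of the 4 WAT arrays (colour, cut at 3 either way) for member probe sets and for markers of fast fibres, skeletal muscle, brown adipocytes and smooth muscle, on the UAG and saline WAT arrays. The *Trdn* probe sets are not drawn, and 1426143_at was lowest on saline replicate 1 (9.09) and highest on saline replicate 2 (76.1). *Atp2a1* and *Pvalb* are high with the fast fibre genes on saline replicate 1 (451 and 277), and *Pln* and *Casq2* are highest with the smooth muscle genes on saline replicate 2 (*Casq2* 97.0, *Myh11* 5589.9).

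Liver expressed few of the genes. Of the 24 probe sets 8 were bright enough to test, 6 of *Atp2a2* and 1 each of *Atp2a1* and *Pln*. None changed 2-fold, where 0.238% of all were higher and 0.193% lower, and none passed limma (adjusted p = 1 for each, with 0.00397% of all 25160 past it) or reached an unadjusted p under 0.05, as 1.94% of all did with higher and 1.72% with lower values after UAG. The median of the 8 was 0.21 with 7 above 0, beside 0.00 over all. In 2 of the 8, both of *Atp2a2*, the UAG arrays lay above the saline arrays and in none below, where 15.3% and 15.2% of all did. The probe set 1452363_a_at had 406 and 433 after UAG and 389.8 and 344 after saline, a log2 difference of 0.20 (standard error 0.13). The other, 1443551_at, had the values near 30 given above. With both saline values below 30, 1443551_at entered the test only through its UAG arrays, so its direction was fixed in advance. The brightest, 1427250_at, had 1412 and 1371 after UAG and 1451 and 1261 after saline, a ratio of 1.03. *Atp2a1* had 52.8 and 62.9 after UAG and 55.9 and 40.6 after saline, which overlap. Of 31 pathway genes tested in liver none changed 2-fold or passed limma.

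Whether the UAG differences themselves differed between tissues was tested on all 12 arrays. No member passed for muscle minus WAT or for muscle minus liver (20 probe sets each, adjusted p = 1 throughout), where 0.00377% and 0% of all 26530 probe sets did. At an unadjusted p under 0.05 there were 6 for muscle minus WAT, where 3.57% of all were, and 1 for muscle minus liver, where 2.81% of all were. *Sln* is counted in both, but its WAT and liver values were all at the floor, so its difference repeats that of muscle and compares no tissues. For *Casq2* muscle minus WAT was 1.67 (0.46) and for *Pln* on 1450952_at 1.79 (0.44). It was 1.27 (0.74) for *Pln* on 1460332_at, 1.56 (1.01) for *Pvalb* and 1.64 (1.23) for *Atp2a1*. Without WAT saline replicate 1 the difference was 2.25 for *Casq2*, 2.30 for *Pln* on 1450952_at and 2.33 on 1460332_at. It was then -0.05 for *Pvalb* and -0.31 for *Atp2a1*. Without WAT saline replicate 2 these differences were, in the same order, 1.10, 1.28, 0.20, 3.16 and 3.59. Such a fit leaves 1 saline WAT array against UAG WAT arrays at or near the floor, so no p-value is given. The larger differences came with the saline WAT array that was kept. This was replicate 2 with its smooth muscle genes for *Pln* and *Casq2* and replicate 1 with its fast fibre genes for *Pvalb* and *Atp2a1*.

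**Figure D5:**
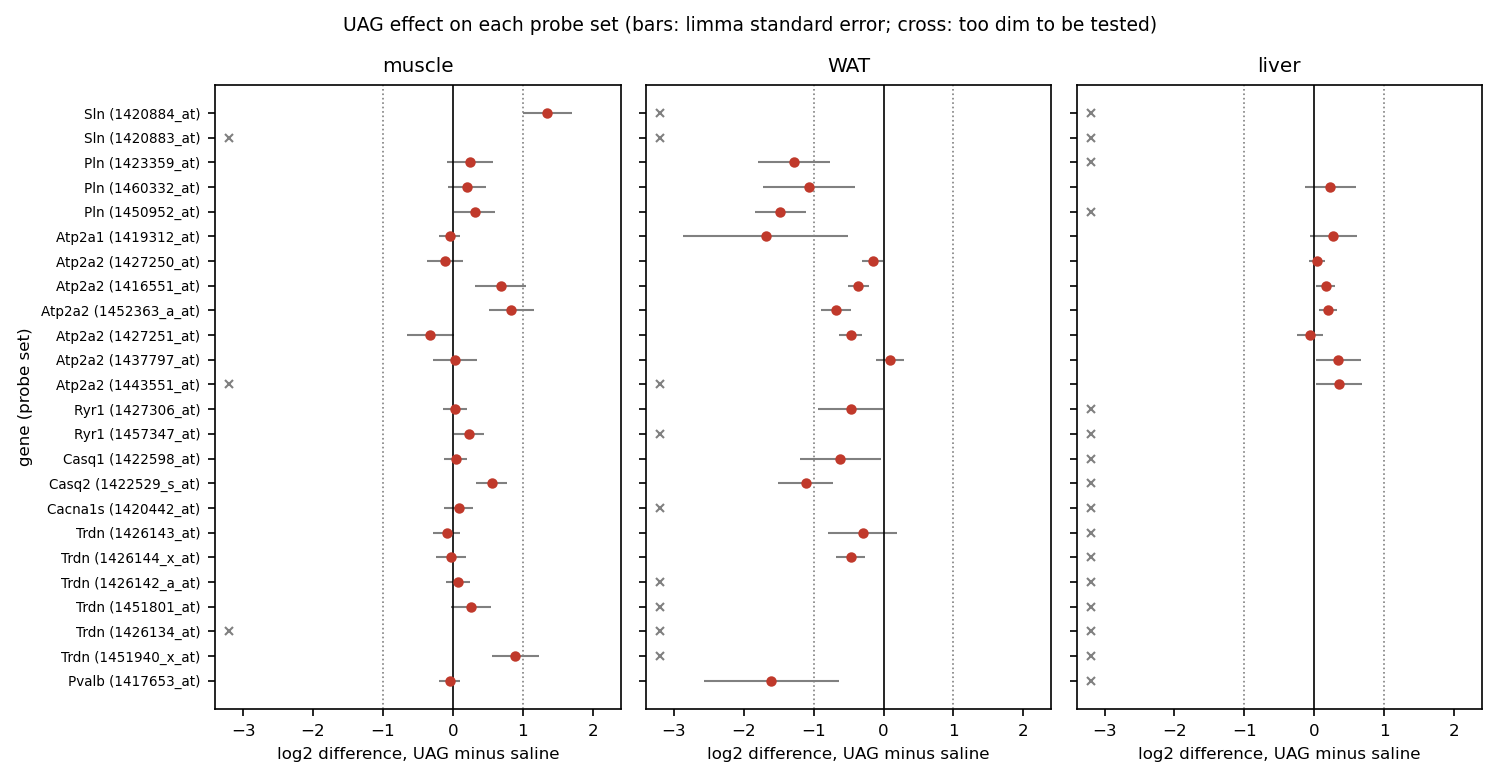
Log2 difference, UAG minus saline, of the 24 probe sets in muscle, WAT and liver, with limma's standard error as bars and dotted lines at 2-fold. Crosses mark probe sets too dim to be tested in that tissue. *Sln* at 1.35 is the only probe set past the upper line in muscle, and 6 probe sets lie past the lower line in WAT.

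For *Sln*, *Pln* and *Atp2a2* the genes with the most similar profile were sought among all named genes. The measure was the mean absolute difference of log2 intensity over the 12 arrays, with each probe set centred on its own mean after the floor. For *Sln* these were *Mettl22* (0.157), *Tnni2* on a dim probe set (0.164), *Ube2t* (0.203), *Musk* (0.214) and *Zfand5* (0.229). For *Pln* they were *Slmap* (0.201), *Aldh1l2* (0.223), *Calhm5* (0.269), *Nxn* (0.272) and *Jmy* (0.276). For *Atp2a2* on 1427250_at they were *Arf4* (0.0601), *Arf6* (0.0750), *Cttn* (0.0882), *M6pr* (0.0942) and *Prkag2* (0.0946). The *Atp2a2* profile varied less between arrays than those of *Sln* and *Pln*, so its distances are smaller. *Sln* was below 30 on every WAT and liver array and *Pln* on some of them. Likeness to them on those arrays may be no more than a shared floor.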

How the data were processed

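RNA of 12 arrays (Affymetrix Mouse Genome 430 2.0) was measured by the authors, who deposited log values, read as log2, after quantile normalization. MAS5 is named in the submitters' notes with no version. The base of the logarithm is not given in the sources used here, and base e would put 2% of values above the 65535 that a scanner can record. Depth does not apply, and present calls were not used. Values were returned to intensity and floored at 30. Probe sets were named from the annotation of the platform (34945 with 1 symbol, 932 with several, 9160 with none), and 64 control probe sets were left out. A probe set was called 2-fold when the ratio of its arithmetic means reached 2 or was no more than 0.5. limma 3.58.1 (R 4.3.3) with an intensity trend was fitted per tissue to log2 values of probe sets with a mean of at least 30, and to all 12 arrays for tissue contrasts and differences of the UAG effect. P-values were adjusted by Benjamini-Hochberg over all probe sets tested. An exact permutation test of 2 against 2 arrays cannot go below p = 0.333 and was not used. The labels do not tie arrays to mice, so the 12-array fit takes tissues as independent. The fits were tested on simulated data. All probe sets of the 10 genes are reported. Pathway genes were named per tissue where they passed limma or changed 2-fold, or else the 3 with the largest absolute log2 difference, and tissue contrasts give examples. The genes and lists were chosen with earlier results of these data known. Alternatives were other floors, filters and normalizations, geometric means, no trend, a single fit, a replicate block and each array left out.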

Additional observations from a re-analysis of the deposited data

Results flagged for a closer look

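UAG minus saline went opposite ways in 2 tissues, with arrays that do not overlap in either, for *Casq2* and for *Atp2a2* on 1452363_a_at but not on its other probe sets. On *Atp2a2* 1452363_a_at the log2 difference was 0.84 (standard error 0.33) in muscle and -0.68 (0.21) in WAT. In the fit to all 12 arrays the difference between these effects was 1.51 (0.42), with an unadjusted p of 0.00454 and an adjusted p of 1. For *Casq2* the log2 difference was 0.56 (0.22) in muscle and -1.12 (0.39) in WAT, and the difference between the effects was 1.67 (0.46), with an unadjusted p of 0.00395 and an adjusted p of 1. In muscle the low array was saline replicate 1 for both genes, and in WAT *Casq2* was highest on saline replicate 2. Both UAG WAT arrays of *Casq2* were below 30, so it was tested there only through its saline arrays. The *Atp2a2* probe sets 1427250_at (-0.11 in muscle, -0.16 in WAT) and 1427251_at (-0.32 and -0.47) were below 0 in both tissues. On 1416551_at the signs were opposite (0.69 and -0.36), but its muscle arrays overlapped. On *Atp2a2* 1452363_a_at the log2 difference was -0.68 (0.21) in WAT and 0.20 (0.13) in liver, and this difference was not tested. With 2 arrays a group, arrays fail to overlap for many probe sets (15.3% of those tested in WAT lay lower after UAG).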

How the results depend on the processing

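No member passed limma for UAG against saline in any tissue under any alternative. Members called between muscle and liver numbered 13 to 17 (17 with the settings reported) and between muscle and WAT 13 to 16 (14). Between WAT and liver, 1 was called, lower in WAT, 3 with the saline arrays alone (2 higher), 0 with a floor of 100, 10 with no floor (9 higher), and 1 to 4 with an array left out (4 without WAT saline replicate 2, 3 of them higher). Members changed 2-fold numbered 1 in muscle, 0 with a floor of 100 and 0 to 3 with an array left out (0 without UAG replicate 2, 2 without saline replicate 1, 3 without saline replicate 2). In WAT they numbered 6, 1 with a floor of 100, and 4 to 7 with an array left out. In liver there were 0, and 4 with no floor. The *Atp2a1* ratio in WAT was 0.153, and 0.0817 to 1.23 with an array left out (1.23 without WAT saline replicate 1). Differences of the UAG effect, muscle minus WAT, were called for 0 members. Their size for *Pln*, *Casq2*, *Pvalb* and *Atp2a1* turned on which saline WAT array was kept. An array left alone in its group is assumed to vary like the others.

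Same-numbered arrays of UAG and saline correlated in their deviations at 0.177 in muscle, -0.176 in WAT and -0.03 in liver, and the labels tie the numbers to nothing. With the replicate block, limma called 0 probe sets in muscle, 22 in WAT and 17 in liver, 0 of them members, and with the pairing crossed in WAT, added after seeing the data, it called 0. The block left the members called between tissues at 17, 14 and 1.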

Other observations

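*Rcan2*, a regulator of the calcium-dependent phosphatase calcineurin, was higher on both UAG arrays than on both saline arrays in all 3 tissues, though no tissue passed limma (adjusted p = 0.699 in WAT and 1 in muscle and liver). It had 741 and 606 on UAG arrays and 575 and 495 on saline arrays of muscle. In WAT it had 232 and 183 after UAG and 132 and 142 after saline, and in liver 166 and 279 after UAG and 97.8 and 131 after saline. The log2 differences were 0.33 (standard error 0.20), 0.59 (0.20) and 0.93 (0.28), with unadjusted p-values of 0.129, 0.0265 and 0.0107. *Rcan2* was picked out of 53 pathway genes. Both UAG arrays lay above both saline arrays for 11.4% of all probe sets tested in muscle, 22.0% in WAT and 15.3% in liver. The share that did so in all 3 tissues was not counted. The 3 tissues may come from the same mice, which the labels do not tell. Other liver genes of the pathway were *Camk2b*, a calcium-dependent kinase, at 97.0 and 64.3 after UAG and 54.3 and 45.6 after saline (log2 difference 0.67, standard error 0.34), and *Ryr3*, a release channel, at 28.6 and 64.5 after UAG and 79.6 and 64.9 after saline (-0.71, 0.41).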
